A study of Homo sapiens with 9 samples.

Results

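The genes described here are the metalloproteases of the MMP and ADAM families and their TIMP inhibitors, with 1 collagen and 1 further gene, in melanoma cells given a microRNA-199a-3p mimic. Members were all genes whose symbol has the form of a collagen chain, laminin chain, integrin subunit, MMP, ADAM, ADAMTS or TIMP. Each had to be the only symbol of a row of the deposited table. MMP1 and the ITGB1BP genes were left out by the rule and are counted neither among the members nor among the reference symbols below. Where a gene had several rows the brightest was used. This gave 43 of 14812 genes: 20 ADAM genes, 17 MMP genes, TIMP1 to TIMP4, COL26A1 and ITGB3BP. The reference gene table holds 152 symbols of these forms, among them 44 collagens, 12 laminin chains, 19 integrin alpha symbols, 11 integrin beta symbols and 19 ADAMTS genes. Apart from COL26A1 and ITGB3BP none of these was named in the annotation used, so collagens, laminins, integrins and ADAMTS proteases were not analysed here. ITGB3BP carries the name of an integrin only because its product binds integrin beta 3. It encodes a nuclear and centromere protein and is kept because the symbol rule holds it. MMP2, MMP3, MMP7 and MMP9 were likewise not named here.

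WM266-4 is an established human melanoma line derived from a metastasis, and the cells used carried GFP. They were lipofected with either the miR-199a-3p mimic at 0.5 nM, the mimic at 0.25 nM, or a control microRNA at 0.5 nM, with RNA taken 48 h later. Each of the 3 groups had 3 biological replicates, 1 array each, and no control was given at 0.25 nM. The question the design poses is how transcript levels change with the mimic at each dose.

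Matrix metalloproteases (MMPs) are secreted or membrane-bound zinc enzymes that cut collagens and other matrix proteins. ADAM proteases sit in the membrane, and those with an intact active site release growth factors, cytokines and adhesion molecules from the cell surface. TIMPs bind the active sites of both and block them; in melanoma the membrane-type enzyme MMP14 and the sheddase ADAM10 are among the best known members. A microRNA directs silencing of transcripts that pair with its seed, and the mimic's mature strand is shown because its seed, bases 2 to 8, is what such transcripts would match. The capitals mark the seed, and the sequence, of 22 bases, is that of RefSeq, in which hsa-miR-199b-3p is identical.
hsa-miR-199a-3p: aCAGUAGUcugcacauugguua
On GRCh38.p14 this strand lies on the minus strand at chr1:172144554-172144575 in MIR199A2 and at chr19:10817429-10817450 in MIR199A1, and miR-199b-3p on the minus strand at chr9:128244745-128244766 in MIR199B. Seed sites in the members' transcripts were not searched, since no transcript sequences were used here.

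All values are deposited log2 intensities, shifted by a constant per array so that the 9 arrays share a median, and differences are log2 changes against the control. The shift matters: as deposited, the median gene was higher by 0.10 at 0.5 nM and by 0.14 at 0.25 nM, and a member with a called change whose direction depends on it is named as such. All 3 control arrays carried exactly the same value in 47.8% of rows, and the corresponding shares were 48.6% at 0.5 nM and 42.0% at 0.25 nM. No equal value was found between arrays of different groups. Of the 43 members, 16, 19 and 18 were tied on all 3 arrays of the control, 0.5 nM and 0.25 nM groups. At 0.25 nM these figures were taken over all deposited values, including those of replicate 3 left out below. In every group 5 members were tied, ADAM28, MMP10, MMP12, MMP20 and MMP24, so their arrays differ within a group only by the shift. With such ties the p-values of the test over arrays are too small, so counts are to be read against the share of all genes called. A group-level test, which takes each group as 1 value and the difference between the doses as error, was run beside it. That error was moderated by level over all genes, with 1 residual and 36.9 prior degrees of freedom. Its SE therefore mostly reflects genes of like level and not the gene's own difference between doses. In replicate 3 of the 0.25 nM group some values had lost a digit. Values of under 10 digits were therefore left out there, 19.1% of genes and 10 members, which then have n = 2; such short values made up 19.4% of rows on this array and 9.55% to 10.6% on the others, so intact values are among those left out. Replicate 1 stood apart from replicates 2 and 3 in every group. Of 9 melanocyte and melanoma markers 8 were measured, all above the median level of 6.25, while the 4 of 5 keratinocyte markers measured were all below it. Summed as a mean over the 3 keratinocyte genes measured on all arrays, that list lay between 4.56 and 4.67 in the control, 4.33 and 4.35 at 0.5 nM, and 4.71 and 4.72 at 0.25 nM. Of 5 endothelial markers 2 were measured, with KDR above the median level at 8.37, and their mean lay between 6.71 and 6.82, 6.73 and 6.81, and 6.96 and 6.99 in the same order. The 3 of 6 fibroblast markers measured were below the median level, between 4.40 and 4.77, 4.52 and 5.03, and 4.42 and 5.10, and the 1 leukocyte marker measured of 6, CD14, between 4.87 and 4.88, 4.78 and 4.81, and 4.75 and 4.99. The part of these lists in the results was not tested.

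Metalloproteases and TIMPs moved in both directions, about as often as genes in general, and mostly by small amounts. At 0.5 nM 28 of 43 members (65.1%) passed limma's test over arrays at an adjusted p of 0.05, against a share of all genes called of 63.2; 13 were higher, where the share over all genes was 33.2%, and 15 lower, where it was 30.0%. At 0.25 nM 24 (55.8%) passed, against 64.2% of all genes; 9 were higher and 15 lower, against 30.3% and 33.9%. The median change over all 43 was -0.04 at 0.5 nM and -0.02 at 0.25 nM, beside 0.01 and -0.02 over all genes. Directions leaned on the shift: with values as deposited 16 members rose and 11 fell at 0.5 nM, against 45.0% and 20.1% of all genes, and 21 rose and 5 fell at 0.25 nM, against 50.7% and 17.1%. Of the 43, 16 were called at both doses with 1 sign, against 37.8% of all genes, and 5 with opposite signs, against 12.5%. With no threshold 32 members (74.4%) had the same sign at both doses, against 67.8% of all genes. The doses share their control arrays. No member passed limma's group-level test, which called 19 genes, 0.128% of all (0.0270% higher and 0.101% lower); at an unadjusted p under 0.05 there were 4 members (9.3%), against 6.55% of all genes. These were MMP15 (-0.51 ± 0.15 SE, limma adjusted p = 0.296), ADAM19 (0.34 ± 0.14, adjusted p = 0.579), ADAM10 (-0.26 ± 0.12, adjusted p = 0.681) and the dim ADAM20 (-0.75, adjusted p = 0.747).

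**Figure D1:**
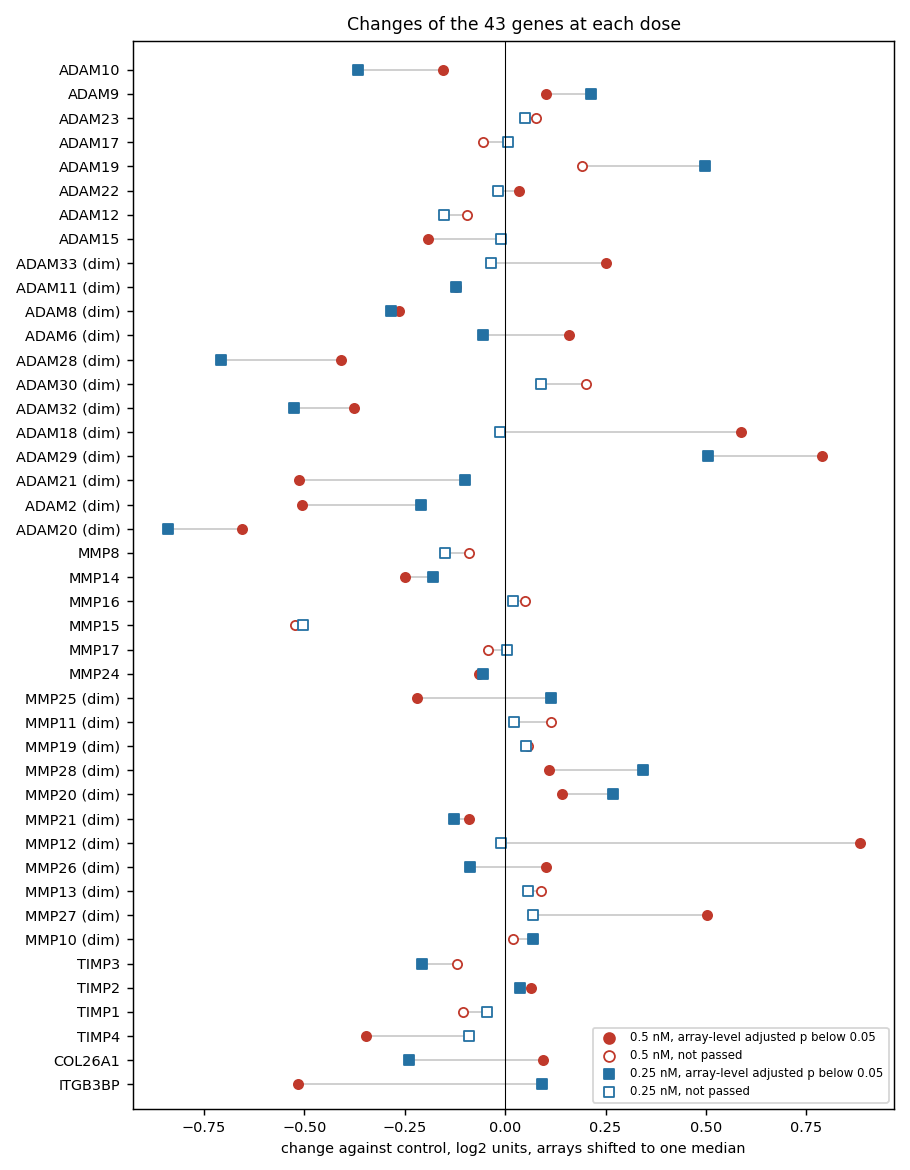
Log2 change against the control of each of the 43 members at 0.5 nM and 0.25 nM, circles for 0.5 nM and squares for 0.25 nM, filled where limma's adjusted p over arrays was below 0.05 and open otherwise; genes at or below the median level are marked dim. Most members lie close to 0 at both doses, and members far from 0, such as MMP12 with 0.88 at 0.5 nM and -0.01 at 0.25 nM, often differ between doses. MMP12 is dim, and on every array it shared its exact value with many other rows.

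ADAM10 and ADAM9, catalytically active sheddases, moved in opposite directions. ADAM10, which releases Notch, cadherin and other ectodomains, read 11.25 on all 3 control arrays, 11.03, 11.12 and 11.12 at 0.5 nM, and 10.85 and 10.91 on the 2 arrays measured at 0.25 nM. Every mimic array lay below every control array. It fell by 0.16 ± 0.029 (SE) at 0.5 nM (limma adjusted p = 0.00384) and by 0.37 ± 0.033 at 0.25 nM (adjusted p = 0.000100). The fall was thus smaller at the higher dose, with a difference of 0.21 between doses (limma adjusted p = 0.00156). As deposited the change at 0.5 nM was -0.07 and did not pass (limma adjusted p = 0.150). ADAM9, another growth factor sheddase, read 10.46 on each control array, 10.57, 10.56 and 10.56 at 0.5 nM, and 10.66, 10.66 and 10.71 at 0.25 nM. The groups did not overlap, and the rise was larger at the lower dose: 0.10 ± 0.015 (limma adjusted p = 6.29e-04) and 0.21 ± 0.015 (adjusted p = 8.79e-06).

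Other ADAMs above the median level changed little or at 1 dose. ADAM17, which releases tumour necrosis factor from the cell surface, read 9.57, 9.64 and 9.63 in the control, 9.57, 9.56 and 9.55 at 0.5 nM, and 9.55, 9.60 and 9.70 at 0.25 nM. These ranges overlapped, and the changes of -0.05 ± 0.037 and 0.01 ± 0.037 did not pass (limma adjusted p = 0.241 and 0.896); as deposited the second was 0.16 and passed (adjusted p = 0.0108). ADAM15, an adhesion-binding protease, read 7.77, 7.90 and 7.84 in the control, 7.66, 7.65 and 7.64 at 0.5 nM, and 7.79 and 7.87 at 0.25 nM. Only its 0.5 nM arrays lay below the control, at -0.19 ± 0.036 (limma adjusted p = 0.00364; -0.10 and adjusted p = 0.0626 as deposited), while the change at 0.25 nM was -0.01, or 0.14 as deposited. ADAM22 and ADAM23 lack a working active site and act as surface binding partners of LGI proteins in neurons. ADAM23 overlapped between all groups, with changes of 0.08 ± 0.11 and 0.05 ± 0.11 (limma adjusted p = 0.593 and 0.721). ADAM22 rose by 0.04 ± 0.012 at 0.5 nM (limma adjusted p = 0.0374), a call lost with an intensity trend in the fit or without any of 5 single arrays (0.03 to 0.04 without control replicates 2 or 3 or a 0.5 nM replicate), and was at -0.02 at 0.25 nM, or 0.14 as deposited.

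**Figure D2:**
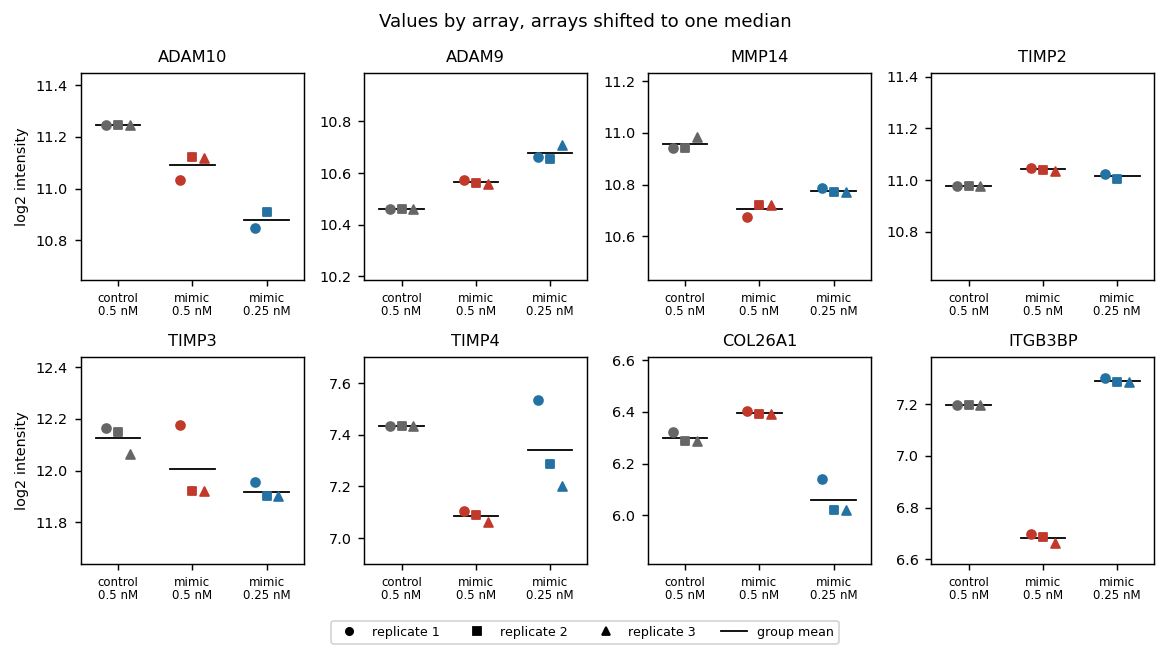
Shifted log2 intensity of ADAM10, ADAM9, MMP14, TIMP2, TIMP3, TIMP4, COL26A1 and ITGB3BP on each array, 1 panel a gene, by group, with a circle, square or triangle for replicate 1, 2 or 3 and a line at the group mean. ADAM10 and MMP14 lie below the control on every mimic array and ADAM9 above it, while ITGB3BP is low at 0.5 nM only.

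Apart from ADAM12 and ADAM19, described below, the remaining ADAMs measured were at or below the median level of all genes, where many values tie. Several of them are known chiefly from testis and sperm (ADAM2, ADAM18, ADAM20, ADAM21, ADAM29, ADAM30 and ADAM32). ADAM20 read 3.03, 3.19 and 3.63 in the control, 2.44, 2.69 and 2.77 at 0.5 nM, and 2.46, 2.44 and 2.44 at 0.25 nM, a fall of 0.65 ± 0.16 and of 0.84 ± 0.16 (limma adjusted p = 0.00775 and 0.00222). ADAM28, a lymphocyte-associated protease, fell by 0.41 and 0.71 and ADAM32 by 0.38 and 0.53. ADAM29, which lacks protease activity, rose by 0.79 and 0.51. ADAM8, ADAM11 and ADAM2 were lower at both doses, at -0.26 and -0.29, -0.12 and -0.12, and -0.51 and -0.21; as deposited ADAM2 at 0.25 nM was -0.06 and did not pass (limma adjusted p = 0.538), ADAM8 at 0.25 nM was -0.13 and did not pass (adjusted p = 0.0822), and ADAM11 was 0.03 at that dose. ADAM21 fell by 0.51 at 0.5 nM and by 0.10 at 0.25 nM, where it was 0.05 as deposited. ADAM18 rose by 0.59 at 0.5 nM and ADAM33 by 0.25, with -0.01 and -0.04 at 0.25 nM. ADAM30 did not pass at either dose, and ADAM6, a pseudogene in human, was 0.16 at 0.5 nM and -0.06 at 0.25 nM, the latter 0.10 as deposited.

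Over the family, 6 of 20 ADAMs rose and 9 fell at 0.5 nM, against 33.2% and 30.0% of all genes, and 3 rose and 9 fell at 0.25 nM, against 30.3% and 33.9%. As deposited the splits were 6 and 7, against 45.0% and 20.1% of all genes, and 8 and 4, against 50.7% and 17.1%. Among the 12 ADAMs with a known active site 2 rose and 6 fell at 0.5 nM, and 2 rose and 5 fell at 0.25 nM; as deposited these were 2 and 4, and 4 and 3, to be read against the same shares of all genes.

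MMP14, the membrane-type protease that cuts pericellular collagen and activates other MMPs, fell at both doses. It read 10.94, 10.94 and 10.99 in the control, 10.68, 10.72 and 10.72 at 0.5 nM, and 10.79, 10.77 and 10.77 at 0.25 nM. All control arrays lay above all mimic arrays. The fall was 0.25 ± 0.018 at 0.5 nM (limma adjusted p = 1.07e-05) and 0.18 ± 0.018 at 0.25 nM (adjusted p = 7.44e-05), and the doses differed by -0.07 (adjusted p = 0.0107). As deposited the 0.25 nM change was -0.02 (limma adjusted p = 0.324), so the call at that dose rests on the shift.

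Of the other membrane-type MMPs, MMP16 and MMP17 did not pass at either dose, with changes of 0.05 and 0.02 for MMP16 and of -0.04 and 0.01 for MMP17; as deposited MMP16 passed at 0.14 and 0.18, and without replicate 2 of the 0.25 nM group it passed at 0.05 and 0.07. MMP24 read 7.09 on each control array, 7.03, 7.02 and 7.02 at 0.5 nM, and 7.04, 7.03 and 7.03 at 0.25 nM. That difference of -0.07 and -0.05 passed limma's test (adjusted p = 3.40e-04 and 9.81e-04), but the sign turned to 0.02 and 0.10 as deposited. The deposited values of this row were tied within every group, so these p-values rest on no spread between replicates. The other, dimmer row of MMP24, at a level of 5.35, was at -0.16 and -0.40 with the shift. MMP25 was -0.22 at 0.5 nM and 0.11 at 0.25 nM on its brightest row, while its other rows read 0.24 and 0.35 at 0.5 nM, so its rows disagree in direction. Among the 6 membrane-type enzymes none rose and 3 fell at 0.5 nM, against 33.2% and 30.0% of all genes, and 1 rose and 2 fell at 0.25 nM, against 30.3% and 33.9%. As deposited 2 rose and 2 fell at 0.5 nM, against 45.0% and 20.1%, and 3 rose and none fell at 0.25 nM, against 50.7% and 17.1%.

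MMP15, a further membrane-type MMP, was singled out after its values were seen. It read 7.86, 8.75 and 8.76 in the control, 7.29, 8.29 and 8.22 at 0.5 nM, and 7.31, 8.33 and 8.22 at 0.25 nM. Replicate 1 was low in all 3 groups, so the groups overlap. The mimic array was the lower in 6 of 6 comparisons with the control array of its own replicate number. The differences were -0.58, -0.46 and -0.54 at 0.5 nM and -0.55, -0.42 and -0.54 at 0.25 nM. Each control array serves both doses in these comparisons, and the share of all genes with such a count was not taken. Such a count was common among the members. ADAM8, ADAM12, ADAM20, ADAM28, ADAM32, MMP8, MMP14, MMP24 and TIMP1 were also lower in 6 of 6. ADAM9, ADAM19, ADAM29, MMP10, MMP20, MMP27 and MMP28 were higher in 6 of 6. With 5 pairs measured, ADAM2, ADAM10, ADAM11, ADAM21 and MMP21 were lower in all and TIMP2 higher in all, while ADAM17 was mixed. The changes of -0.52 ± 0.41 and -0.50 ± 0.41 did not pass without a block (limma adjusted p = 0.310 and 0.322) and passed with the replicate number as a block (adjusted p = 6.20e-05 and 7.25e-05). Without replicate 1 of every group, an alternative chosen after seeing the data, they were -0.50 and -0.48 (limma adjusted p = 0.00202 and 0.00230). In the group-level test MMP15 passed only when control replicate 1 alone was left out, at -0.81 (limma adjusted p = 0.00595), as 1 of 34 genes called. That setting removes the low array from the control and keeps it in the mimic groups.

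**Figure D3:**
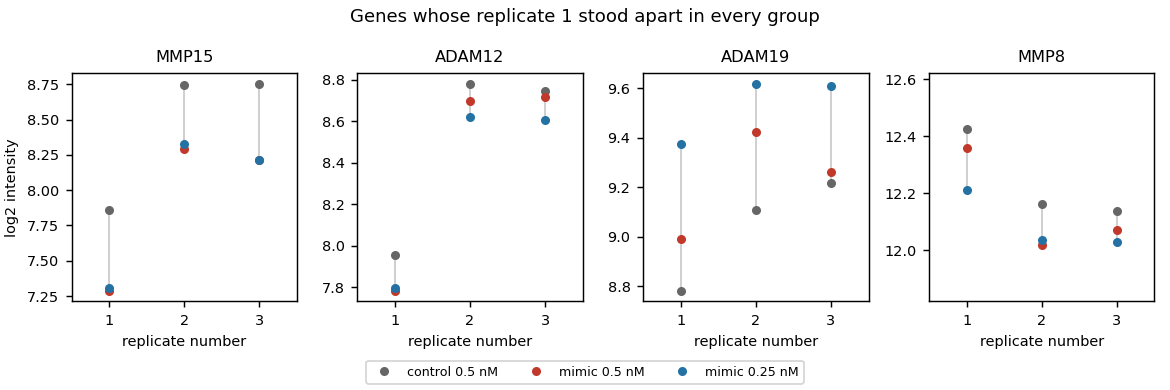
Shifted log2 intensity of MMP15, ADAM12, ADAM19 and MMP8 on each array, by replicate number, coloured by group, with a grey line joining the 3 groups of 1 number. Replicate 1 lies apart from replicates 2 and 3 in each group, and the MMP15 control lies above both doses at each number.

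ADAM12, ADAM19 and MMP8 also changed their call with the block; ADAM12 and ADAM19 were singled out after their values were seen. ADAM12, a membrane protease of myoblasts and tumours, read 7.95, 8.78 and 8.74 in the control, 7.78, 8.70 and 8.72 at 0.5 nM, and 7.80, 8.62 and 8.60 at 0.25 nM. Its changes of -0.09 and -0.15 did not pass without the block (limma adjusted p = 0.844 and 0.743) and passed with it (adjusted p = 0.0400 and 0.00745), and with the block on values as deposited they did not (adjusted p = 0.897 and 0.927). ADAM19, a neuregulin sheddase, read 8.78, 9.11 and 9.22 in the control, 8.99, 9.42 and 9.26 at 0.5 nM, and 9.37, 9.62 and 9.61 at 0.25 nM. It was higher than the control array of the same number in 6 of 6 comparisons. So were ADAM9, ADAM29, MMP10, MMP20, MMP27 and MMP28, and the share over all genes was not taken. The rise of 0.50 ± 0.15 at 0.25 nM passed (limma adjusted p = 0.0225), a call lost at 0.37 without control replicate 1 and at 0.46 without replicate 2 or 3 of the 0.25 nM group, and 0.19 ± 0.15 at 0.5 nM did so only with the block (adjusted p = 0.0364, against 0.312). MMP8, the neutrophil collagenase, read 12.42, 12.16 and 12.14 in the control, 12.36, 12.02 and 12.07 at 0.5 nM, and 12.21, 12.04 and 12.03 at 0.25 nM. Its -0.15 at 0.25 nM needed the block to pass (limma adjusted p = 0.0129, against 0.296), and was 0.01 as deposited. The block removed the calls of ADAM33 at 0.5 nM (limma adjusted p = 0.0542, from 0.0364) and between doses (adjusted p = 0.0632, from 0.0344) and of MMP28 at 0.5 nM (0.0507, from 0.0256). It added a call of ADAM19 between doses, at -0.31 for 0.5 nM minus 0.25 nM (limma adjusted p = 0.00702, from 0.117). With it 30 members passed at 0.5 nM, against 65.7% of all genes; 12 were higher, against 34.3%, and 18 lower, against 31.3%. At 0.25 nM 27 passed, against 67.4%; 9 were higher, against 31.3%, and 18 lower, against 36.0%. Between doses 23 passed, against 65.4%.

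The other secreted MMPs were at or below the median level. MMP12, the macrophage elastase, read 3.27 on all control arrays, 4.16, 4.15 and 4.15 at 0.5 nM, and 3.27, 3.26 and 3.26 at 0.25 nM. It was high at 0.5 nM alone, by 0.88 (limma adjusted p = 9.01e-10), and at -0.01 at 0.25 nM, or 0.15 as deposited. The deposited values of MMP12 were tied within every group, so this p rests on no spread between its replicates. Its value was also that of 92 to 125 other rows on the control arrays, 267 to 292 at 0.5 nM and 368 to 378 at 0.25 nM. MMP27 likewise rose by 0.50 at 0.5 nM, with 0.07 at 0.25 nM, and MMP10, stromelysin 2, rose by 0.07 at 0.25 nM and stood at 0.02 at 0.5 nM; as deposited MMP27 passed at 0.25 nM with 0.23 and MMP10 at 0.5 nM with 0.11. MMP20, the enamel protease, and MMP28, epilysin, rose at both doses, by 0.14 and 0.27 and by 0.11 and 0.34, the MMP28 call at 0.5 nM being lost without replicate 3 of that group (0.09). MMP21 was -0.09 and -0.13, but as deposited did not pass at 0.5 nM (limma adjusted p = 0.685) and was 0.03 at 0.25 nM. MMP26 was 0.10 and -0.09, the latter 0.07 as deposited. MMP11, MMP13 and MMP19 did not pass at either dose; as deposited MMP13 passed at 0.25 nM with 0.21. Of the 17 MMPs 5 rose and 4 fell at 0.5 nM, against 33.2% and 30.0% of all genes, and 4 rose and 4 fell at 0.25 nM, against 30.3% and 33.9%. As deposited 8 rose and 2 fell, against 45.0% and 20.1%, and 11 rose and none fell, against 50.7% and 17.1%.

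The TIMPs, which block these enzymes, differed among themselves. TIMP4 read 7.43 on all control arrays, 7.10, 7.09 and 7.06 at 0.5 nM, and 7.54, 7.29 and 7.20 at 0.25 nM. It fell at 0.5 nM, by 0.35 ± 0.077 (limma adjusted p = 0.00552), and its 0.25 nM arrays lay on both sides of the control (-0.09, adjusted p = 0.335; -0.19 and past the test without replicate 1 of that group). TIMP2, which also helps MMP14 to activate its substrate protease, read 10.98 on each control array, 11.05, 11.04 and 11.04 at 0.5 nM, and 11.02 and 11.01 at 0.25 nM. The rise was small, 0.06 ± 0.0089 and 0.04 ± 0.010 (limma adjusted p = 9.87e-04 and 0.0198), and the second call was lost without control replicate 2 or 3 (0.04). TIMP3, the matrix-bound inhibitor that also acts on ADAM17, read 12.17, 12.15 and 12.06 in the control, 12.18, 11.92 and 11.92 at 0.5 nM, and 11.96, 11.90 and 11.90 at 0.25 nM. All arrays at 0.25 nM lay below the control, at -0.21 ± 0.071 (limma adjusted p = 0.0358; -0.05 and adjusted p = 0.554 as deposited), and the -0.12 ± 0.071 at 0.5 nM did not pass (adjusted p = 0.180). The call at 0.25 nM was lost without control replicate 1 or 2 or any 0.25 nM array, at -0.23 to -0.19, and the change at 0.5 nM passed without replicate 1 of that group, at -0.21. TIMP1 read 10.70, 10.48 and 10.47 in the control, 10.61, 10.31 and 10.42 at 0.5 nM, and 10.62, 10.46 and 10.43 at 0.25 nM. These ranges overlapped, and its changes of -0.10 and -0.04 did not pass (limma adjusted p = 0.399 and 0.721), the first passing with the block (adjusted p = 0.0434).

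COL26A1, a secreted collagen-family protein first described in testis and ovary, and ITGB3BP changed in opposite directions at the doses. COL26A1 read 6.32, 6.29 and 6.29 in the control, 6.40, 6.39 and 6.39 at 0.5 nM, and 6.14, 6.02 and 6.02 at 0.25 nM, or 0.10 ± 0.032 (limma adjusted p = 0.0346) and -0.24 ± 0.032 (adjusted p = 3.91e-04). The call at 0.5 nM was lost without control replicate 2 or 3 or any 0.5 nM array, at 0.09 to 0.10. As deposited the changes of COL26A1 were 0.18 and -0.08 (limma adjusted p = 0.00107 and 0.0360). Its level of 6.251 lay only just above the median of 6.246. ITGB3BP read 7.20 on every control array, 6.70, 6.69 and 6.66 at 0.5 nM, and 7.30, 7.28 and 7.28 at 0.25 nM, or -0.52 ± 0.011 (limma adjusted p = 1.60e-08) and 0.09 ± 0.011 (adjusted p = 2.29e-04). The 0.5 nM arrays of ITGB3BP all lay below the control and the 0.25 nM arrays all above it.

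Between the doses 23 of 43 members (53.5%) differed by limma's test over arrays, against 62.2% of all genes, 12 higher at 0.5 nM, against 35.0%, and 11 lower, against 27.1%. All of these groups got the same mimic. Among members above the median level, those higher at 0.5 nM were COL26A1 by 0.34, ADAM10 by 0.21 and ADAM22 by 0.05, the last turning to -0.015 as deposited. The largest differences the other way were ITGB3BP at -0.61, TIMP4 at -0.26 and ADAM15 at -0.18; the call of TIMP4 was lost without replicate 2 or 3 of the 0.5 nM group (-0.26 and -0.25), and that of ADAM15 without replicate 2 of the 0.25 nM group (-0.15). The spread of the members' changes, as an SD over genes, was 0.33 at 0.5 nM and 0.26 at 0.25 nM, and that of the difference between doses 0.26; over all genes these were 0.31, 0.31 and 0.31. The difference between 2 doses of 1 mimic thus spread about as widely over genes as did the changes against the control.

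Without a model, all control arrays lay above, or all below, every mimic array for 18 of 43 members (41.9%), against 45.1% of all genes. ADAM10, MMP14, MMP24, ADAM2, ADAM8, ADAM11, ADAM20, ADAM21, ADAM28, ADAM32 and MMP21 were the 11 with a higher control (22.5% of all genes), and ADAM9, TIMP2, ADAM29, MMP10, MMP20, MMP27 and MMP28 the 7 with a lower one (22.6%). Of the 20 members above the median level 5 did not overlap, against 38.8% of such genes, and of the 23 others 13, against 51.3%. As deposited the count was 24, against 49.8% of all genes, with the control lower in 18, against 39.0%, and higher in 6, against 10.8%. Without replicate 1 of every group it was 29, against 58.9% of all genes. Changes were also wider among dim members, with an SD over genes at 0.5 nM of 0.40, against 0.19 for those above the median level.

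**Figure D4:**
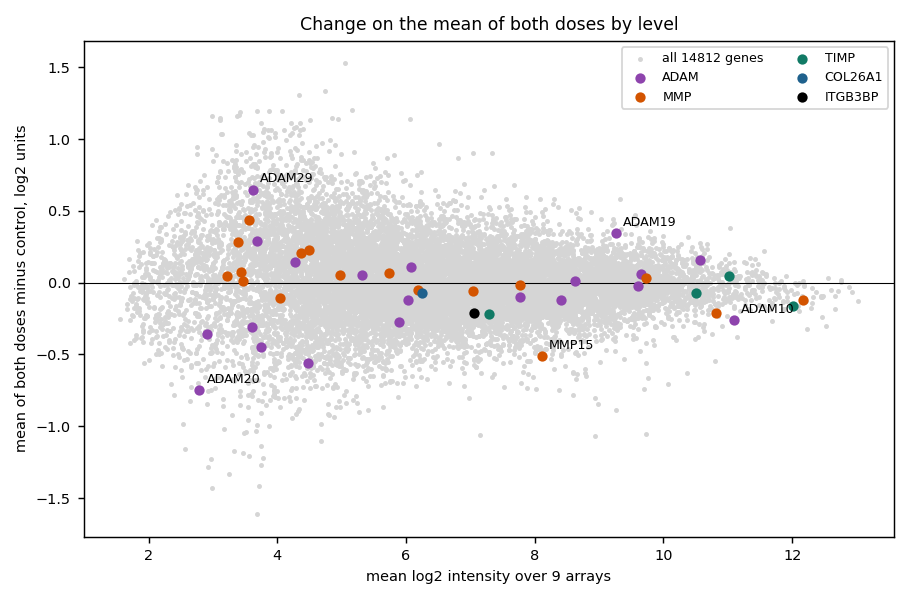
Group-level log2 change, both doses against the control, of each member against its mean log2 level over the 9 arrays, coloured by family, with all 14812 genes in grey. Members at or below the median level of 6.25 scatter more widely than brighter ones, and MMP15, at -0.51, lies lowest among the members above the median.

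Promoters are shown for members that the results turn on, ADAM10, MMP14 and MMP15, and for MMP10 as a contrast with another motif. RefSeq promoters matched 27 of the 43 members, and the 250 bases before each gene's start were searched. The GC box, a site for Sp factors (GGGCGG or CCGCCC, which is both strands), was found in 15 of the 27, against 42.6% of 35116 promoters. The AP-1 motif (TGANTCA, the same on both strands), known from inducible MMP promoters, was found in 2, MMP10 and MMP20, against 6.57%. Capitals mark the GC box in the first 3 sequences and the AP-1 motif in the last, each written 5′ to 3′ on the gene's strand.
ADAM10: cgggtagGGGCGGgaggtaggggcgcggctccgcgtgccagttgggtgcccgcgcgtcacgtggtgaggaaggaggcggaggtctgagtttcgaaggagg
MMP14: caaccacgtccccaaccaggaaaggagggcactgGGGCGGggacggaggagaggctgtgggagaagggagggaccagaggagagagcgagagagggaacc
MMP15: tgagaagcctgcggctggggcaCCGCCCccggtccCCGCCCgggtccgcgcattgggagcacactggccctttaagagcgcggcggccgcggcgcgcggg
MMP10: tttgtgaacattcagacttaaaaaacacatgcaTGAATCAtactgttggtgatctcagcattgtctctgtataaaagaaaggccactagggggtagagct
On GRCh38.p14 these are chr15:58749808-58749907 on the minus strand, from -200 to -101 of the ADAM10 start, chr14:22836485-22836584 and chr16:58025654-58025753 on the plus strand and chr11:102780629-102780728 on the minus strand, each from -100 to -1. These matches are descriptions of letters.

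Genes that work with these proteases were taken as 4 lists, chosen with earlier results known, of which 37 of 56 genes were measured. At 0.5 nM 10 rose and 11 fell, against 33.2% and 30.0% of all genes, and at 0.25 nM 9 rose and 13 fell, against 30.3% and 33.9%. As deposited these were 13 and 7, against 45.0% and 20.1%, and 15 and 6, against 50.7% and 17.1%. With the block they were 11 and 16 at either dose, against 34.3% and 31.3% at 0.5 nM and 31.3% and 36.0% at 0.25 nM. The counts of the single lists are to be read against the same shares. None passed the group-level test. The genes named from these lists were chosen after their values were seen. Of 12 other matrix and basement membrane genes 4 rose and 3 fell at 0.5 nM, and 3 rose and 3 fell at 0.25 nM. FBN1, the main microfibril protein, read 7.98, 8.03 and 8.03 in the control, 8.45, 8.66 and 8.52 at 0.5 nM, and 8.40, 8.59 and 8.59 at 0.25 nM, a rise of 0.53 ± 0.069 and 0.52 ± 0.069 (limma adjusted p = 3.35e-04 and 3.84e-04). ECM1, a secreted matrix glycoprotein, fell by 0.63 and 0.29 (limma adjusted p = 4.68e-06 and 4.29e-04).

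Of 12 adhesion genes that act with integrins 4 rose and 4 fell at 0.5 nM, against 33.2% and 30.0% of all genes. At 0.25 nM 4 rose and 5 fell, against 30.3% and 33.9%. FERMT2, the integrin activator kindlin, rose by 0.56 and 0.33 (limma adjusted p = 0.00100 and 0.0144), while the focal adhesion scaffold PXN fell by 0.34 and 0.41 (adjusted p = 3.19e-07 and 1.14e-07). Of 9 collagen and matrix processing genes 1 rose and 1 fell at 0.5 nM, and 1 rose and 2 fell at 0.25 nM, against the same shares. Of 4 activators and inhibitors of proteases 1 rose and 3 fell at each dose, against the same shares. As deposited 1 rose and 1 fell at 0.5 nM, against 45.0% and 20.1% of all genes. At 0.25 nM 3 rose and 1 fell as deposited, against 50.7% and 17.1%. RECK, a membrane-anchored inhibitor of MMPs and of ADAM10, was the riser, by 0.23 ± 0.072 and 0.41 ± 0.080 (limma adjusted p = 0.0333 and 0.00479).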

How the data were processed

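The authors deposited log2 intensities in 1 table of 9 whole-transcript arrays (biotin labelling); the submitters' processing notes name RMA, oligo and affy. Their versions and the build were not given in the sources used here. The platform annotation names 15835 of 44629 rows with 1 symbol; 28794 are unnamed here. The brightest row of each gene was kept (14812 genes), and arrays were shifted to 1 median. In replicate 3 of the 0.25 nM group 2835 genes, whose values had under 10 digits, were left out there, intact short values included; no value on that array has 0 as first decimal, against 4178 to 4774 on the other arrays. Group means were compared with lmFit and eBayes in limma 3.58.1 (R 4.3.3), two-sided, Benjamini-Hochberg adjustment over all 14812 genes, threshold 0.05. The group-level test was limma with an intensity trend on the 3 group means, 1 residual degree of freedom and 36.9 prior degrees of freedom. That 9 arrays, 3 per group, were used limits the precision.

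Replicate numbers were taken to pair the arrays. Deviations from the group mean of same-numbered arrays of different groups correlated at 0.143 to 0.585 over genes. Replicate 1 correlated with replicates 2 and 3 of other groups at -0.485 to -0.218, and replicate 2 with replicate 3 of another group at 0.187 to 0.359. Same-numbered arrays of replicates 2 and 3 correlated at 0.143 to 0.373, a similar range. The values thus set replicate 1 apart and do not show that replicates 2 and 3 pair by number. Negative values follow in part from taking deviations from means of 3 arrays. Values with the block are printed where they change a call.

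Members and gene lists were chosen with earlier results of these data known. Members named were the 3 brightest of each family, all TIMPs and those past the group-level test (none). Members above the median level called at both doses with 1 sign and no overlap were named, up to 8 in each direction. At any level, the 3 with the largest mean change in each direction under the same conditions were named too, and all were dim. Above the median level, the 3 with the largest difference between doses in each direction were also named. The others in the text were named to account for every member. Alternatives were values as deposited, damaged values kept, the replicate block, the intensity trend, dim genes left out, the mean of all rows, and leaving out each array.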

Additional observations from a re-analysis of the deposited data

Results flagged for a closer look

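The 2 doses of the mimic differed for 23 members by limma's test over arrays, a share below that over all genes (62.2%). For 5 of them the changes against the control had opposite signs at the doses and both passed. As the value at 0.5 nM minus that at 0.25 nM, ADAM6 differed by 0.21, COL26A1 by 0.34, ITGB3BP by -0.61, MMP25 by -0.33 and MMP26 by 0.19. With values as deposited ADAM6 and MMP26 were above the control at both doses (0.25 and 0.10 for ADAM6, 0.19 and 0.07 for MMP26). The other rows of MMP25 were higher than the control at both doses, at 0.24 and 0.04 and at 0.35 and 0.04. Opposite calls at the doses were found for 12.5% of all genes.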

How the results depend on the processing

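The count of members called was 27, 26 and 25 (0.5 nM, 0.25 nM and between doses) with values as deposited, 21, 17 and 17 with short values kept, 28, 23 and 23 with the mean of all rows, 27, 24 and 23 with the intensity trend, and 30, 27 and 23 with the replicate block, beside 28, 24 and 23. Leaving out dim genes, which leaves 20 members, gave 9, 9 and 8, and 5 not overlapping. Leaving out 1 array at a time gave 25 to 30, 22 to 24 and 19 to 24, 18 to 23 not overlapping, and 0 to 1 in the group-level test. The 1 was MMP15 without control replicate 1, where 34 genes were called. Without replicate 1 of every group, chosen after seeing the data, 29 did not overlap, against 58.9% of all genes. Shares of all genes were not taken with short values kept, the mean of all rows or the intensity trend. Nor were shares called taken with dim genes or single arrays left out, or with the block on values as deposited. Those counts therefore cannot show whether members moved differently from genes in general. Directions turned as follows among the 29 members followed under every alternative. As deposited, at 0.5 nM MMP24 was 0.0236; at 0.25 nM ADAM15 was 0.14, ADAM22 0.14, MMP24 0.10, ADAM11 0.0320, ADAM21 0.0532 and MMP12 0.15; between doses ADAM22 was -0.015 and TIMP2 -0.0370. With the block on values as deposited, also chosen after seeing the data, the counts were 31, 28 and 27; MMP24 was 0.0236 at 0.5 nM, and at 0.25 nM ADAM15 was 0.15, ADAM22 0.14, MMP24 0.10, TIMP1 0.11, ADAM11 0.0363, ADAM21 0.0596 and MMP12 0.15; between doses ADAM22 was -0.015 and TIMP2 -0.0370. Of the others, ADAM6, MMP21 and MMP26 turned at 0.25 nM as deposited, to 0.10, 0.0269 and 0.0695. With short values kept ADAM11 was 0.0643 at 0.25 nM. With the mean of all rows MMP25 was 0.12 at 0.5 nM and 0.0537 between doses, and MMP24 0.11 between doses. Apart from the construction of each setting the cause was not tested. Other background corrections, normalizations and slide blocks were not run, since only the processed values were used here.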

Other observations

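On each array 58.5% to 63.4% of rows shared their exact value with another row. Of the 20 members above the median level 1 shared its value on all control arrays, and of the 23 others 10 did. MMP10, MMP27 and ADAM29 carried the same value, 3.19, on each control array.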
